A study of Camellia sinensis with 9 samples.

Results

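The opposite 5p arms of the miR166 family were followed across 3 organs of the tea plant, Camellia sinensis: root, flower and leaf. The members were the 5 rows named csn-miR166d_5p, csn-miR166e_5p, csn-miR166f_5p, csn-MIR166o_5p and csn-MIR166p_5p in the deposited table of 371 named miRNAs. Rows d and p hold the same sequence, and row o holds the same sequence as a further row, miR166h_5p, so the 5 rows came to 4 distinct sequences of 341 in the table. The prefix csn- is left out below. Each organ was represented by 3 small RNA libraries from untreated plants (root13, root23 and root33, flower1, flower2 and flower45, leaf1, leaf23 and leaf41), and the labels name no cultivar, age or genotype. Nothing in the labels says whether the libraries came from separate plants, so p-values measure the spread between these libraries, which may be technical. Each library holds a whole organ, in which fewer cells of a type and less RNA per cell cannot be told apart. No organ-defining marker stands in a table of miRNAs, so the organ labels were not checked in that way.

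A plant miRNA is cut from a hairpin precursor as a duplex of both arms. In the miR166 family the 3p arm is the guide that is loaded into Argonaute and cuts the mRNAs of class III HD-ZIP transcription factors, which set the upper side of leaves, meristem activity and vascular patterning. The 5p arm is the opposite strand, which is usually lost soon after the duplex opens. Different precursors can release the same 3p guide but different 5p strands, so 5p reads can mark the precursor where 3p reads cannot.

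The 4 member sequences are shown because they differ at few bases, and those bases are what separates their counts. All are written 5′ to 3′ as RNA, with the seed (bases 2 to 8) in capitals:
miR166f_5p: gGAAUGUUgucuggcucgagg
miR166e_5p: gGAAUGUUguuuggcucgaga
miR166d_5p/MIR166p_5p: aGAAUGUUgucuggcucgagg
miR166h_5p/MIR166o_5p: gGAAUGUUggcuggcucgaug
All 4 are 21 bases long and share the seed GAAUGUU. With positions counted from 1 at the 5′ end and miR166f_5p as the reference, miR166e_5p carries C11U and G21A. The sequence of miR166d_5p/MIR166p_5p carries G1A alone, and that of miR166h_5p/MIR166o_5p carries U10G and G20U. The first base is G in 3 of the 4 and A in miR166d_5p/MIR166p_5p.

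The 3p guides are shown beside them, because only the h/o member has a 3p row of its own name:
miR166a_3p/miR166b_3p: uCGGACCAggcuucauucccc
miR166h_3p/MIR166o_3p: uCGGACCAggcuucauuccuc
These differ by C20U. The second is also listed as MIR845h-3p, so its reads stand under 2 family names. Both ends of the duplex were laid out with 2-base 3′ overhangs, which leaves 19 facing positions, and position 20 lies in the overhang. The pairing with either guide is therefore the same, and complementarity does not assign a 5p sequence to one of them. miR166f_5p made 14 Watson-Crick pairs, 2 G-U pairs and 3 mismatches. miR166e_5p made 13, 3 and 3, miR166d_5p/MIR166p_5p made 13, 2 and 4, and miR166h_5p/MIR166o_5p made 14, 1 and 4. The mismatches at positions 7, 8 and 15 were common to all 4. The change at position 10 added a mismatch in miR166h_5p/MIR166o_5p, and the one at position 1 added a mismatch in miR166d_5p/MIR166p_5p.

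Counting each sequence once, the libraries held 369605 (root13) to 1073284 (flower2) counts. Depth ran with organ: the flower libraries held 876770 to 1073284, and those of root and leaf 369605 (root13) to 662023 (root23). Raw counts are therefore not comparable between flower and the other organs without scaling. Log2 CPM (counts scaled to a common library total of 1e+06) correlated at 0.928 to 0.962 between libraries of the same organ in root and flower and at 0.948 between leaf1 and leaf23, but leaf41 reached 0.773 with leaf1 and 0.81 with leaf23, across miRNAs, which are not independent replicates. With the root libraries leaf41 reached 0.732 (root13), 0.777 (root23) and 0.791 (root33), so its values with root23 and root33 both stood above that with leaf1. By contrast, leaf1 and leaf23 reached 0.599 to 0.670 with root. This touches every comparison with leaf, and a call on a member or its 3p arm that changes without leaf41 is given beside its value. Of the 341 sequences, 129 passed the low-count filter, and all 4 members were among them. CPM values are after TMM scaling, and tests are edgeR's quasi-likelihood test with Benjamini-Hochberg adjustment over the 129 sequences.

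miR166f_5p was the most abundant member, with 16342 of the 19189 member counts. It also held 65.8% of the 24834 counts of all 9 listed miR166 5p sequences. In root it did not lead throughout. There miR166c_5p/miR166l_5p, which is not a member, had more counts in root13 and root33 (575 and 1072) and fewer in root23 (516). miR166f_5p had 181, 668 and 862 counts in root13, root23 and root33, 3635, 2745 and 3967 in flower1, flower2 and flower45, and 1384, 1281 and 1619 in leaf1, leaf23 and leaf41. The flower libraries were the highest, those of leaf lay between, those of root were the lowest, and the organs did not overlap in counts or in CPM. The CPM was 4357 ± 1070 in flower, 2606 ± 132 in leaf and 1089 ± 771 in root (mean ± SD, n = 3 each). Flower exceeded root by log2 2.0 ± 0.63 (SE), a 4.0-fold difference (adjusted p = 0.0291). That call was made in all 7 processing alternatives and in 6 of 9 cases with a library left out. Against leaf the value was 0.74 ± 0.61 (adjusted p = 0.376), and root against leaf gave -1.26 ± 0.62 (adjusted p = 0.127). Neither passed the test, while root against leaf was called in 5 of 7 processing alternatives and in 2 of 9 cases with a library left out, those without root33 or flower45 (adjusted p = 0.018 to 0.323 over the 9). The flower and leaf value turned to -0.29 with every row counted as deposited and to -0.11 without flower45.

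miR166e_5p, which differs from miR166f_5p in the middle and at the last base, separated the organs further. Its counts were 7, 15 and 17 in root13, root23 and root33, 51, 43 and 73 in leaf1, leaf23 and leaf41, and 765, 373 and 156 in flower1, flower2 and flower45. Every flower library was above every leaf library, and every leaf library above every root library, in counts and in CPM, with a wide spread in flower. The CPM was 527.3 ± 364 in flower, 100.4 ± 16.7 in leaf and 24.5 ± 12.1 in root (mean ± SD, n = 3 each). Flower exceeded root by log2 4.42 ± 0.84 (SE), a 21.4-fold difference (adjusted p = 0.00298), and this call was made in all 7 processing alternatives and whichever of the 9 libraries was left out. Flower exceeded leaf by 2.39 ± 0.76, a 5.24-fold difference (adjusted p = 0.0342). That call was made in 3 of 7 processing alternatives and in 3 of 9 cases with a library left out, which were those without root13, root33 or leaf41 (adjusted p = 0.0351 to 0.132 over the 9). Root against leaf gave -2.03 ± 0.77 and missed the threshold (adjusted p = 0.0608). It was called in 6 of 7 processing alternatives but in only 1 of 9 cases with a library left out, that without flower45 (adjusted p = 0.0151 to 0.185 over the 9).

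The sequence of miR166d_5p/MIR166p_5p, which starts with A, was the one that was lowest in root. It had no read in root13 or root23 and 11 in root33, where leaf1, leaf23 and leaf41 held 53, 48 and 25 and flower1, flower2 and flower45 held 246, 282 and 88. A count of 0 allows up to 3 counts, or 8.12 CPM by the library total in root13 and 4.53 in root23. These floors are before TMM scaling, which divides them by a factor of 1.51 in root13 and 0.94 in root23, while the means below are after it. The organs did not overlap in CPM, with 251 ± 115 in flower, 79.4 ± 34.7 in leaf and 7.94 ± 13.7 in root (mean ± SD, n = 3 each). Flower exceeded root by log2 5.01 ± 1.49 (SE; adjusted p = 0.0231). The root side of this value rests on root33, because the other root libraries were at 0. The call was made in all 7 processing alternatives and in 5 of 9 cases with a library left out. By the count divided by the authors' constant for each library (called RPTM in the table, and not defined there), the flower mean was 70.1-fold and 72.0-fold above the level that 3 counts would have in root13 and in root23. These constants (2.11 to 2.25) do not follow the miRNA totals (369605 in root13, 662023 in root23 and 876770 to 1073284 in flower). The folds are therefore not adjusted for the greater totals in flower. Flower against leaf gave 1.66 ± 1.26 (adjusted p = 0.341), and root against leaf gave -3.35 ± 1.41 (adjusted p = 0.0859). Neither passed the test. Without leaf41 the root and leaf value became -3.66 and was called (adjusted p = 0.0496). It was also called without root33 or flower45 and in 4 of 7 processing alternatives (adjusted p = 0.00466 to 0.199 with a library left out).

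The sequence of miR166h_5p/MIR166o_5p was the least abundant member by total counts (594). Counts were 156, 216 and 123 in flower1, flower2 and flower45, 19, 26 and 22 in leaf1, leaf23 and leaf41, and 0, 11 and 21 in root13, root23 and root33. Flower stood apart from both other organs, and root33 overlapped with leaf in CPM. The CPM was 204.4 ± 46.6 in flower, 41.1 ± 8.17 in leaf and 21.1 ± 22.9 in root (mean ± SD, n = 3 each). Flower exceeded root by log2 3.28 ± 1.14 (SE), a 9.72-fold difference (adjusted p = 0.0428). That call was made in all 7 processing alternatives and in 5 of 9 cases with a library left out (adjusted p = 0.022 to 0.141 over the 9). Flower against leaf gave 2.31 ± 1.09 (adjusted p = 0.125), and root against leaf gave -0.97 ± 1.07 (adjusted p = 0.448), so neither was called. Among the alternatives flower against leaf was called by DESeq2 (adjusted p = 0.0335) and without root13 (adjusted p = 0.0331), and root against leaf by none.

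**Figure D1:**
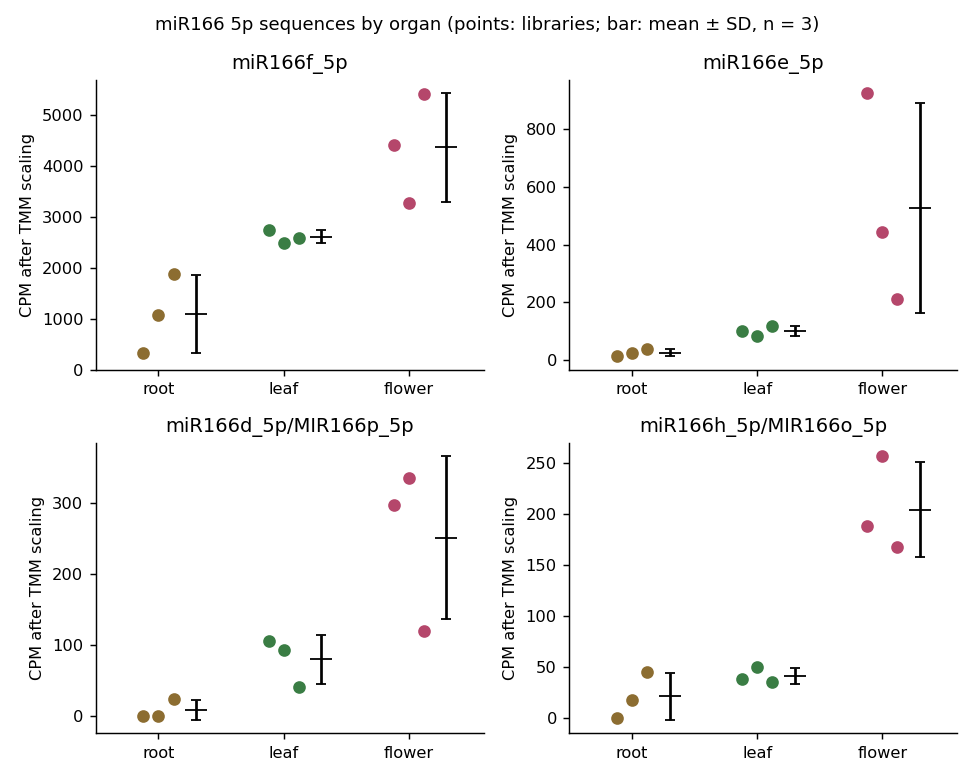
CPM after TMM scaling (linear y axes) of the 4 distinct miR166 5p sequences in root, leaf and flower. Points are libraries and bars the mean ± SD (n = 3). The 3 flower libraries lie above all root and leaf libraries in each panel, and the spread of miR166e_5p in flower (527.3 ± 364) is the widest relative to its mean among the flower groups.

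Between flower and root all 4 members were called, each higher in flower, where 18.6% of the 129 tested sequences were called higher in flower. All 4 were called in each of the 7 processing alternatives. Over all sequences the calls higher in flower ran from 35 of 276 (no low-count filter) to 37 of 131 (the authors' divisor as library size). The number depended on single libraries: it was 1 without root23 and without flower1, 2 without root13 and without flower2, and 3 without leaf23. Without any of the other libraries it was 4. All sequences called higher in flower were 12 of 134 without root23, 20 of 138 without flower1, 16 of 137 without root13 and 15 of 137 without flower2. They were 24 of 138 without leaf23, and 22 of 136 (without flower45) to 32 of 141 (without leaf41) where all 4 members were called. Between flower and leaf 1 of 4 members was called, miR166e_5p, against 17.1% of all sequences called higher in flower. The number of members called was 0 to 2 with a library left out, with 2 without root13 and 0 without root23, flower1, flower2, flower45, leaf1 or leaf23. Without root13, 24 of 137 sequences were called higher in flower. Between root and leaf no member was called by edgeR, where 13.2% of all sequences were called higher in leaf, while 2 members had an unadjusted p under 0.05. DESeq2 called 3 members lower in root (miR166e_5p, miR166f_5p and miR166d_5p/MIR166p_5p), where it called 27.1% of all sequences lower in root. Leaving out root33 gave 2 calls (18.1% of all sequences higher in leaf), leaving out flower45 gave 3 (25%), and leaving out leaf41 gave 1 (19.9%). The order of the organ means was flower, leaf, root for all 4 members. In CPM the flower libraries of all 4 lay above every root and leaf library, which was so for 17.8% of the tested sequences. The leaf libraries of 3 members lay above all root libraries, against 20.2% of the tested sequences. The 3 comparisons share libraries in pairs and are not independent of each other.

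**Figure D2:**
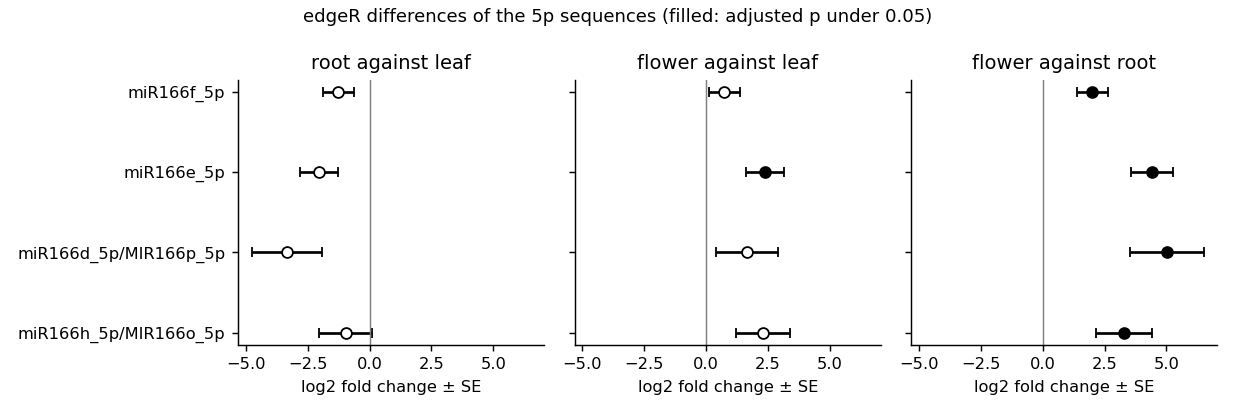
Log2 fold change ± SE (edgeR, first organ over second) of the 4 sequences in the 3 comparisons, with filled points where the adjusted p was under 0.05. Flower against root is filled for all 4, flower against leaf for miR166e_5p alone, and root against leaf for none.

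Summed over the 4 sequences, the 5p counts were 188, 694 and 911 in root13, root23 and root33, 4802, 3616 and 4334 in flower1, flower2 and flower45, and 1507, 1398 and 1739 in leaf1, leaf23 and leaf41. The sum was 4.68-fold higher in flower than in root (log2 2.23 ± 0.62 SE, adjusted p = 0.017). That call was lost without root23 (2.22, adjusted p = 0.0684). Flower against leaf gave 0.92 ± 0.60 (adjusted p = 0.271) and root against leaf -1.31 ± 0.61 (adjusted p = 0.114).

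The make-up of the reads of the 4 members also differed between organs, and as shares within a library these values do not depend on the scaling between libraries. They do depend on which 5p sequences enter the sum, since the c/l sequence described below is not a member. miR166f_5p made up 95.7% ± 0.95 of the member counts in root, 92.2% ± 0.80 in leaf and 81.1% ± 9.08 in flower (mean ± SD, n = 3 each). No library of an organ overlapped with those of another by this share. Over the 3 organs the exact permutation test (9 libraries, between-organ sum of squares) gave p = 0.00357, the smallest possible, and 0.0214 after Benjamini-Hochberg adjustment over the 6 share measures tested. With all 9 listed miR166 5p sequences in the sum, chosen after seeing the data, the order reversed: miR166f_5p took 71.0% ± 9.96 in flower, 69.1% ± 11.7 in leaf and 40.6% ± 15.7 in root (mean ± SD, n = 3 each; exact permutation p = 0.0429, unadjusted). Among the 4 members alone, each pair of organs gave p = 0.1 (exact, two-sided), which is the smallest that 3 libraries against 3 allow. flower45 stood near the leaf libraries, at 91.5% (95% Clopper-Pearson interval 90.7 to 92.3), where flower1 and flower2 stood at 75.7% and 75.9% (intervals 74.5 to 76.9 and 74.5 to 77.3).

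The other 3 members made up the rest, so where the share of miR166f_5p is lower the sum of their shares is higher by construction. miR166e_5p took 9.95% ± 6.17 in flower, 3.55% ± 0.58 in leaf and 2.58% ± 0.998 in root (mean ± SD, n = 3 each; exact permutation p = 0.0821 over the 3 organs, adjusted 0.0821). Its flower libraries ran from 3.599% in flower45 to 15.9% in flower1, so flower overlapped with leaf. The share of miR166h_5p/MIR166o_5p was 4.02% ± 1.70 in flower, 1.46% ± 0.35 in leaf and 1.30% ± 1.18 in root (exact permutation p = 0.0321, adjusted 0.0642). The share of miR166d_5p/MIR166p_5p was 4.98% ± 2.89 in flower, 2.80% ± 1.18 in leaf and 0.40% ± 0.70 in root (exact permutation p = 0.075, adjusted 0.0821). After adjustment the share of miR166f_5p alone among the 4 passed 0.05. In flower2 the d/p sequence reached 7.80% and the h/o sequence 5.97%, both the highest of the 9 libraries.

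**Figure D3:**
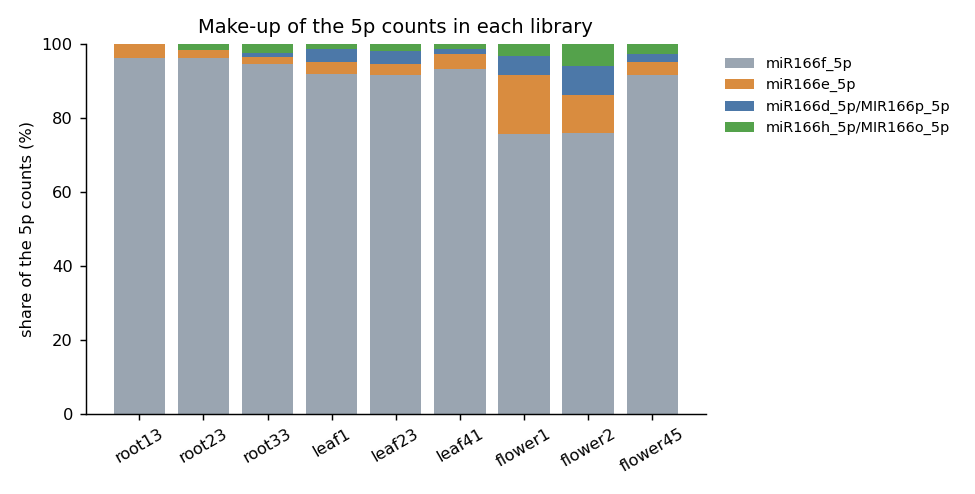
Share of each of the 4 sequences in the summed 5p counts (y axis, percent), 1 bar per library, ordered by organ. miR166f_5p fills 94.6% to 96.3% of the root bars, 91.6% to 93.1% of the leaf bars and 75.7% to 91.5% of the flower bars, with flower45 close to the leaf bars.

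The members were rare beside the 3p guides in all organs. They made up 0.180% ± 0.099 of the counts of the 4 members plus all 4 listed miR166 3p sequences in root, 0.769% ± 0.093 in leaf and 0.983% ± 0.283 in flower (mean ± SD, n = 3 each). The root libraries lay below all others, from 0.0943% in root13 (95% Clopper-Pearson interval 0.0813 to 0.109) to 0.289% in root33 (0.270 to 0.308). Leaf ran from 0.668% to 0.851% and flower from 0.664% to 1.20%, so these organs overlapped. Over the 3 organs the exact permutation p was 0.0143 (adjusted 0.0429 over the 6 measures). With all 9 listed 5p sequences in the numerator this call was lost (exact permutation p = 0.0643, unadjusted), at 0.428% ± 0.181 in root, 1.05% ± 0.277 in leaf and 1.12% ± 0.316 in flower (mean ± SD, n = 3 each). By pair the exact two-sided p was 0.1 for root with either organ, the smallest possible, and 0.4 for flower and leaf. The main 3p guide did not have this order in its means. The sequence of miR166a_3p/miR166b_3p stood at 475150 ± 165090 CPM in root, 318050 ± 33785 in leaf and 487420 ± 87030 in flower, and was called in no pair (adjusted p = 0.104 to 0.901). Flower against leaf was called in 1 of 7 processing alternatives and in 2 of 9 cases with a library left out. Root against leaf was called in 1 of 7 and 1 of 9, and flower against root in none. The sign of each of its differences turned in some of the alternatives.

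**Figure D4:**
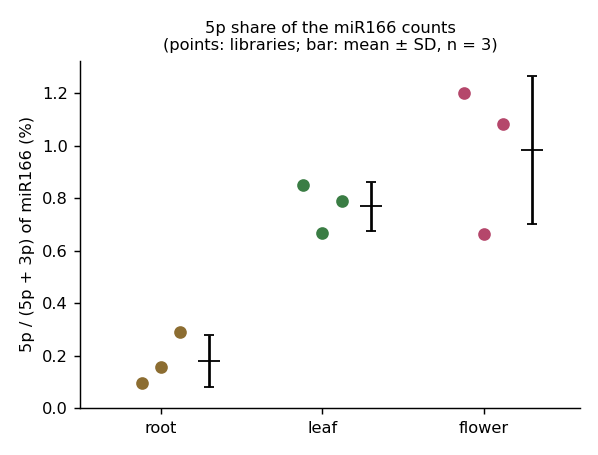
Counts of the 4 members as a percentage of the members plus all listed miR166 3p sequences, by organ. Points are libraries and bars the mean ± SD (n = 3). The root libraries (0.0943% to 0.289%) lie below all leaf and flower libraries, and flower and leaf overlap.

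The h/o hairpin is where both arms of a member are listed by the same name, and the arms ranked root and leaf differently. The 3p arm had 15424, 17533 and 16174 counts in root13, root23 and root33, 45189, 43566 and 39275 in flower1, flower2 and flower45, and 2771, 2743 and 10808 in leaf1, leaf23 and leaf41. Flower was the highest, root was second and leaf the lowest, with no overlap in CPM, while leaf41 stood well above the other leaf libraries. The higher level in flower than in root did not pass the test (log2 0.82 ± 0.45 SE, adjusted p = 0.169). It was called without leaf41 (adjusted p = 0.0265) and in 4 of 7 processing alternatives. Flower against leaf was called (2.51 ± 0.47, adjusted p = 0.00395) here and in all 16 alternatives. The 3p arm was called higher in root than in leaf (log2 1.69 ± 0.46 SE, adjusted p = 0.0229), where the 5p arm gave -0.97 ± 1.07. Both signs were the same in all 16 alternatives. The 3p call was made in 4 of 7 processing alternatives and in 1 of 9 cases with a library left out, that without leaf41 (log2 0.91 to 2.43, adjusted p = 0.00136 to 0.114 over the 9). The 5p arm as a share of both arms was 0.0641% ± 0.065 in root, 0.383% ± 0.097 in flower and 0.608% ± 0.373 in leaf (mean ± SD, n = 3 each). All root libraries lay below all others. root13 held 0 of 15424, which allows a share of up to 0.0195%, and root33 held 0.130% (95% Clopper-Pearson interval 0.080 to 0.198). leaf41 was the lowest leaf library, at 0.203% (interval 0.127 to 0.307), with leaf1 at 0.681% and leaf23 at 0.939%. Over the 3 organs the exact permutation p was 0.0571 (adjusted 0.0821), and without leaf41 it was 0.00357. The exact p for root and leaf was 0.1, the smallest possible. The sequence is listed under both the h and the o name in both arms, so its counts cannot be split between these loci, and 3p reads of the MIR845h-3p name cannot be told apart from them.

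**Figure D5:**
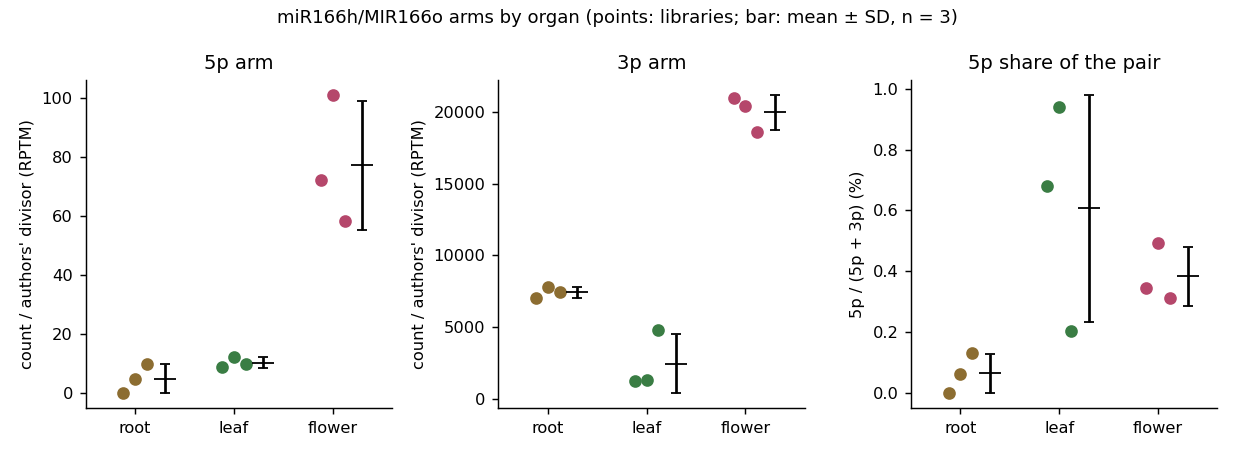
The h/o pair by organ: count divided by the authors' constant (RPTM) for the 5p arm and the 3p arm, and the 5p arm as a percentage of both. Points are libraries and bars the mean ± SD (n = 3). Root exceeds leaf in the 3p panel and lies below it in the share panel, where leaf41 (0.203%) stands apart from the other leaf libraries.

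The table lists 9 distinct miR166 5p sequences in all, and the remaining 5 show how far the members' order reaches. The sequence of miR166a_5p/miR166b_5p, named for the most abundant guide, had 64 counts in all 9 libraries, where its 3p partner had 2470639. Its counts were 18, 18 and 14 in flower1, flower2 and flower45, 0 to 4 in root and 0 to 6 in leaf. The sequences of miR166j_5p, MIR166n_5p and miR166g_5p had 27, 15 and 12 counts, and none of these 4 passed the low-count filter. Of them, miR166j_5p alone shares the member seed GAAUGUU. The sequence of miR166c_5p/miR166l_5p was different in kind. It has the seed AUGAAGU, pairs with miR166c_3p/miR166l_3p at 16 Watson-Crick positions of 19, and had 5527 counts, more than any member except miR166f_5p. Its CPM was 1394 ± 808 in root, 1030 ± 725 in leaf and 721.9 ± 150 in flower (mean ± SD, n = 3 each), with overlapping libraries and no call (adjusted p = 0.284 to 0.575). Its 3p partner was 6.08-fold lower in flower than in root (log2 -2.60 ± 0.37 SE, adjusted p = 0.0006) and 3.11-fold lower than in leaf (-1.64 ± 0.36, adjusted p = 0.00721), and both calls were made in all 16 alternatives.

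The members resembled each other across the 9 libraries, with Pearson correlations of log2 CPM between 0.843 (miR166e_5p and miR166f_5p) and 0.935 (miR166f_5p and miR166h_5p/MIR166o_5p). These are descriptions over 9 libraries that share their organs, depth and scaling. Outside the family, the 3 sequences with the highest correlation to each member are given by name, and several recur across members, which correlate with each other. miR166e_5p was nearest to MIR171z_5p (r = 0.921; the miR171 guides target GRAS transcription factors), miR171c_3p (0.919) and miR171h_5p (0.909). miR166f_5p was nearest to miR171h_5p (0.913), miR167e_5p (0.865) and MIR171x_3p (0.848). For miR166d_5p/MIR166p_5p the nearest were MIR171x_3p (0.976), miR171h_5p (0.946) and miR171b_5p (0.925). For miR166h_5p/MIR166o_5p they were miR172f_3p (0.914), of a family that acts on AP2-like factors, MIR171z_5p (0.895) and miR171c_3p (0.870). The MIR171x_3p mean was 9202 CPM in flower, 3813 in leaf and 373.3 in root, the same order as the members. MIR171z_5p, miR171c_3p, miR171h_5p and miR171b_5p also had this order. As these sequences were picked by their correlation, a shared order is no separate result. The others differed: miR167e_5p stood at 98330 in leaf, 78550 in flower and 2482 in root. For miR172f_3p the means were 5404 in flower, 67.68 in root and 50.18 in leaf.

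Opposite 5p arms were listed for 11 other families whose guide is the 3p arm, and those that were called went in both directions. Of 56 such sequences listed, 15 were tested, and in flower against root 4 were called higher and 4 lower, with a median log2 fold change of -1.43, where 24 and 31 of all 129 tested sequences were called and their median was -0.04. MIR171v_5p and MIR171leave_5p were higher in root (log2 -7.39 ± 1.43 and -7.35 ± 1.49 SE, adjusted p = 0.00302 and 0.00383), and miR171b_5p and MIR171z_5p were higher in flower (6.53 ± 1.24 and 5.94 ± 1.17, adjusted p = 0.00298 and 0.00323). In flower against leaf 2 were higher and 2 lower (median -0.81), where all sequences gave 22 and 25 (median -0.12). In root against leaf 3 were higher and 4 lower (median -0.90), where all sequences gave 28 and 17 (median 0.56). All that were called in flower against leaf were of miR171 or miR172 (MIR171z_5p, MIR172l_5p, miR172g_5p and miR172a_5p). The largest changes in the other comparisons were of the same families, so they do not speak for all 11. MIR171z_5p stood at 23824 CPM in flower, near miR171c_3p at 26080. Whether it is a lost strand was not tested.

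Families that work beside HD-ZIP III factors in organ patterning (miR160, miR164, miR319, miR390 and miR396) had 17 tested sequences of 41. In flower against root 5 were called higher and 1 lower (median log2 fold change 1.15, all sequences -0.04), where 18.6% of all sequences were called higher. In flower against leaf 7 were higher and 1 lower (median 1.42, all sequences -0.12), against 17.1% called higher over all. In root against leaf 4 of the 17 were higher and 0 lower (median 1.81, all sequences 0.56), against 21.7% of all sequences called higher in root, so this share is near the background. All 4 were miR390 sequences (miR390a_5p, miR390b_5p, miR390a_3p/MIR390e-3p and miR390b_3p), so the calls in root are of 1 family. The largest changes in flower against leaf were also of miR390 (miR390b_5p, miR390a_5p and miR390b_3p). They were followed by miR396h_3p/miR403a_3p, which also carries a miR403 name. miR390b_5p, which starts small RNAs that act on auxin response factor genes, stood at 100870 ± 9784 CPM in flower, 6298 ± 4240 in root and 320.2 ± 106 in leaf (mean ± SD, n = 3 each). Its order was flower, root, leaf, where that of the 5p members was flower, leaf, root.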

How the data were processed

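TRIzol extraction, removal of ribosomal RNA and Illumina library preparation are recorded per the labels' protocols. How reads were trimmed, mapped and counted, and on which genome build, is not given in the sources used here. Per the file headers, the deposited table holds a whole-number count per miRNA and library and a normalised score, RPTM, rounded by the authors. The deposited score equals the count divided by 1 constant per library (2.11 to 2.25). RPTM is not defined in the header, and values printed here are unrounded. A blank row (1) was left out.

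Rows of the same sequence (U and T alike) were joined, since a read listed in several rows would otherwise enter the library size repeatedly. edgeR 4.0.16 (R 4.3.3) was run on the joined counts (quasi-likelihood F test, TMM, filterByExpr by organ, all 9 libraries, organ as the only factor, Benjamini-Hochberg threshold 0.05). Standard errors were taken as |log2 fold change|/√F. The summed 5p row was fitted with the library sizes and factors of the joined table. The 6 shares were compared with exact permutation tests over libraries (1680 arrangements for 3 organs, 20 for a pair, two-sided). Their p-values were adjusted over all 6 shares, not over the 4 members as planned. Intervals are 95% Clopper-Pearson. They and the floor of 3 counts cover counting error only. The alternatives included DESeq2 1.42.0. Steps were tested on simulated data.

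The members and lists were chosen with earlier results of these data known. Outside the members, the rule named 3p rows of the same letter, the most abundant miR166 3p sequence, the 3 sequences with the highest correlation to each member, and up to 4 called sequences per list by size of change. The remaining miR166 5p and 3p sequences, and miR390b_5p in its 3 organs, were named after their values were seen.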

Additional observations from a re-analysis of the deposited data

How the results depend on the processing

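No paired analysis was possible because no pair of organs shares more than 1 library number. The direction of the 4 members in flower against root and in root against leaf was the same in all 16 alternatives. In flower against leaf miR166f_5p turned to log2 -0.29 with every row as deposited and to -0.11 without flower45 (-0.11 to 0.998 with a library left out). The median log2 fold change of all sequences, 0.56 in root against leaf, -0.12 in flower against leaf and -0.04 in flower against root, moved with scaling alone to 0.09, -0.33 and 0.27 (RLE factors) and to 0.54, -0.52 and -0.34 (library totals). With the authors' divisor (131 sequences tested) it was 0.53, 0.46 and 0.64. With every row as deposited, where rows were not joined and 155 were tested, it was -0.34, -1.16 and -0.07. The cause was not tested. Low counts limit the h/o and d/p sequences in root.

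Members called in root against leaf were 0, and 3 with every row as deposited, DESeq2, RLE factors or no low-count filter, 2 with the 6 libraries of the pair, 1 with library totals, and 0 to 3 with a library left out. All sequences called lower in root were 36 of 155 (every row as deposited), 35 of 129 (DESeq2) and 28 of 129 (RLE factors). They were 49 of 276 with no low-count filter, 27 of 118 with the 6 libraries and 21 of 129 with library totals. With a library left out they were 11 of 134 (without root23) to 34 of 136 (without flower45). In flower against leaf the 1 called member became 2 with DESeq2, 0 with every row as deposited, library totals, no low-count filter or the 6 libraries, and 0 to 2 with a library left out. All sequences called higher in flower were 25 of 129 with DESeq2, 20 of 155 with every row as deposited and 20 of 129 with library totals. They were 22 of 276 with no low-count filter and 15 of 116 with the 6 libraries. With a library left out they were 15 of 136 (without flower45) to 35 of 141 (without leaf41). In flower against root the 4 became 1 to 4 with a library left out. All sequences called in root against leaf were 45, 68 with DESeq2, and 25 to 80 with a library left out; in flower against leaf 47, and 31 to 61; in flower against root 55, and 38 to 71. Their split in root against leaf was 28 higher and 17 lower, 14 and 36 with every row as deposited, and 16 and 49 with no low-count filter.

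The sum of the 4 members in root against leaf (log2 -1.31, not called) was called with every row as deposited (-2.37, adjusted p = 0.0141), DESeq2 (-1.90), RLE factors (-1.90), no low-count filter (-2.37) and the 6 libraries (-2.45), and ran from -2.41 to -0.92 with a library left out. In flower against leaf it turned to -0.0661 (adjusted p = 0.929) with every row as deposited and ran from 0.17 to 1.14 with a library left out, and in flower against root from 1.91 to 3.26.

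For the shares, the exact permutation p over the 3 organs ran with a library left out from 0.00357 to 0.025 for the 5p share of miR166, 0.00357 to 0.164 for the h/o pair, 0.00357 to 0.0393 for miR166f_5p, 0.0107 to 0.125 for miR166e_5p, 0.00357 to 0.143 for the d/p sequence and 0.0321 to 0.121 for the h/o sequence. On the log2 ratio scale it was 0.0214 for the h/o pair, 0.0214 for the d/p sequence and 0.107 for the h/o sequence. With all 9 listed 5p sequences in the sum, an alternative chosen after seeing the data, it was 0.0643 for the 5p share of miR166, 0.0393 for miR166e_5p and 0.0429 for the d/p sequence. For miR166f_5p it was 0.0429 with flower in place of root as the highest organ, because the c/l sequence then entered the sum.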
